A study of Homo sapiens with 6 samples.

Results

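The genes described here were the fibroblast growth factor (FGF) ligands FGF1, FGF2, FGF5, FGF17 and FGF18, the receptors FGFR1, FGFR2, FGFR3 and FGFR4, and the receptor-like FGFRL1. They were taken by gene symbol, and the 10 genes were 10 of the 60748 in the deposited table. RNA was sequenced from LX-2 cells, an immortalised line of human hepatic stellate cells, the collagen-producing pericytes of the liver sinusoid. LX-2FAP cells had been given a lentivirus that overexpresses fibroblast activation protein α (FAPα, gene FAP), a cell-surface serine protease, and LX-2Vector cells carried the vector alone. Both lines were grown in serum-containing medium, cultured for 24 h before sampling and sequenced as 3 libraries each. Per the study's methods, a ubiquitin promoter drove the transgene, the vector also carried EGFP and a puromycin resistance gene, and stable clones were selected with puromycin, so a difference between clones and an effect of FAPα cannot be told apart. The labels do not say that the 3 libraries of a line came from separate cultures, and p-values therefore measure the spread between these libraries, which may be technical.

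Library totals ranged from 17355700 to 26352060 counts. FAP had 42 to 55 counts in the LX-2Vector libraries and 14805 to 15160 in the LX-2FAP libraries, as labelled. Of 12 markers of stellate cells and myofibroblasts, 7 had a mean of at least 1 FPKM (fragments per kilobase of gene, scaled to sequencing depth) in LX-2Vector, led by VIM at 300.8 and TIMP1 at 131.2, whereas DES was at 0.0114 FPKM, COL1A2 at 0.109 FPKM and LRAT, which defines retinoid-storing stellate cells, had no count in any library. Between the lines, COL1A1 (log2 fold change -0.40), COL3A1 (-0.69) and PDGFRB (-0.38) were lower in LX-2FAP and VIM (0.13) was higher. Each had an adjusted p under 0.05 by the edgeR test described below. The other stellate markers did not pass or were not tested, and the part of these differences in the results was not tested. Summed markers of hepatocytes reached 0.156 FPKM, those of epithelium 0.494 and those of leukocytes 2.76, of which CD14 made up most. Summed endothelial markers were at 0.846 to 1.04 FPKM in LX-2Vector and 0.645 to 0.840 in LX-2FAP. Among them VWF was lower in LX-2FAP (log2 fold change -1.06, edgeR adjusted p = 0.0268). PECAM1 (0.05, edgeR adjusted p = 0.878) and STAB2 (-0.84, edgeR adjusted p = 0.168) did not pass, and CDH5 and LYVE1 were not tested. The part of endothelial markers in the results was not tested.

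FGF ligands are secreted proteins that bind receptor tyrosine kinases together with heparan sulfate, a sulfated sugar chain carried by proteoglycans on the cell surface. Binding pairs the receptors, which phosphorylate the adaptor FRS2 and pass the signal through GRB2 and RAS to the ERK kinases. ERK in turn switches on genes such as those of the ETS factors and of the feedback inhibitors of the DUSP, SPRY and SPRED families. FGF1, FGF2 and FGF5 act locally, FGF17 belongs to the FGF8 subfamily, and FGF18 is best known from cartilage and bone. FGFRL1 binds ligands and heparin but lacks the tyrosine kinase domain. In the liver, stellate cells both make and respond to FGFs during injury.

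FGF5 and FGF2 lie on the same chromosome, and the sequence before the start of each is shown because these ligands had the highest levels of the family. Both were read from RefSeq on GRCh38.p14, on the plus strand, and capitals mark matches to the GC box, GGGCGG on either strand. The FGF5 stretch covers the 250 bases before the RefSeq start (chr4:80266338-80266587). The FGF2 stretch covers the first 127 bases of the corresponding window (chr4:122826581-122826707), because the GENCODE annotation places the start of FGF2 123 bases further upstream.
FGF5: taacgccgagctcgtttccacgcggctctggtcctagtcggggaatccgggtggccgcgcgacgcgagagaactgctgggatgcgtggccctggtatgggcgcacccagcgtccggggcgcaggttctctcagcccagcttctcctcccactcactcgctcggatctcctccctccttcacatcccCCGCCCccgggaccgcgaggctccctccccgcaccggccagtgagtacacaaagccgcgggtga
FGF2: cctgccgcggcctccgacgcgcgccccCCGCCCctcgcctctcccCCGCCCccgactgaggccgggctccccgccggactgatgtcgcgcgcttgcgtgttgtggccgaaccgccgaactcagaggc
The FGF5 window was 68.8% G and C and held 1 GC box, 64 bases before the start. RefSeq has a second window for FGF5 (chr4:80268018-80268267), not shown, with no GC box and 2 overlapping TATA box matches, 1 on each strand. The FGF2 window was 75.2% G and C, and the printed stretch held GC boxes 223 and 205 bases before the RefSeq start. All 3 of these printed matches read CCGCCC on the plus strand. The median over 35116 RefSeq promoter windows was 58.0% G and C, and 42.6% of windows held a GC box, so this match does not set the pair apart. Neither of the windows shown held the letters searched for an EGR1 site (GCGNGGGCG, in 8.4% of all windows), an ETS core (CCGGAA, 14.5%), an AP-1 site (TGANTCA, 6.6%) or a TATA box (TATAAA, 10.7%), each read on both strands. A match or its absence describes these letters only. Windows were found for 8 of the 10 genes, FGFR1 and FGF17 having none here.

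FGF5 and FGF2 were the main FGF transcripts of these cells. FGF5 (ENSG00000138675, chromosome 4, 80266599 to 80336680 on GRCh38) was at 19.4, 20.2 and 22.01 FPKM in LX-2Vector replicates 1 to 3 and at 24.2, 24.7 and 25.0 FPKM in LX-2FAP. FGF2 (ENSG00000138685, chromosome 4, 122826708 to 122898236) was at 18.3, 20.003 and 20.9 FPKM in LX-2Vector and at 21.6, 19.9 and 21.8 FPKM in LX-2FAP. The LX-2FAP libraries were therefore all above the LX-2Vector libraries for FGF5, while for FGF2 the groups overlapped. Together FGF5 and FGF2 made up 91.5% ± 0.493 (SD, n = 3) of the summed FPKM of the 22 FGF genes in LX-2Vector and 92.5% ± 0.224 in LX-2FAP. The share of FGF5 alone was 46.0% to 47.1% in LX-2Vector and 49.0% to 51.3% in LX-2FAP, and that of FGF2 was 44.1% to 45.6% and 41.2% to 43.8%. Within LX-2Vector the levels of FGF5 and FGF2 overlapped, and within LX-2FAP every FGF5 level was above every FGF2 level, per length in FPKM. In counts scaled to library size (CPM), which are not per length, the 2 genes overlapped within LX-2FAP. There FGF5 over FGF2 was 0.983, 1.09 and 1.01 in LX-2FAP replicates 1 to 3.

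**Figure D1:**
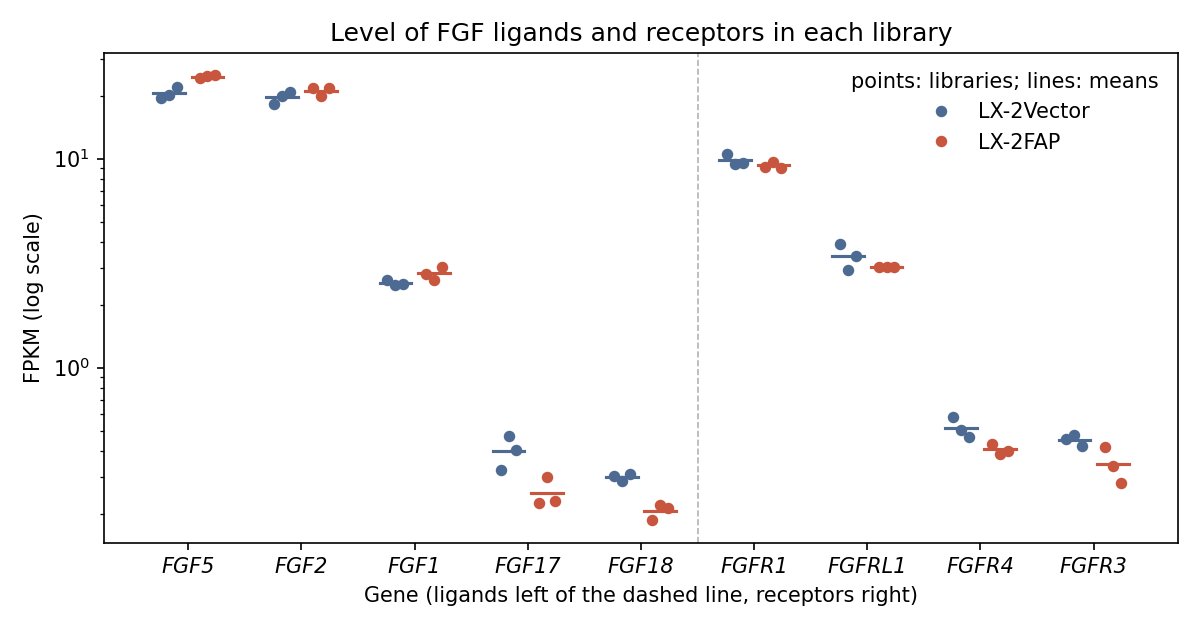
FPKM of each FGF ligand and receptor with counts in more than 1 library, on a log axis, with a point for each library and a line at each group mean (3 LX-2Vector and 3 LX-2FAP libraries). FGF5 and FGF2 sit near 20 FPKM and FGFR1 near 10, while FGF17, FGF18, FGFR3 and FGFR4 lie under 1.

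The remaining ligands were far lower. FGF1 (ENSG00000113578, chromosome 5, 142592178 to 142698070), the ligand that binds every FGFR, was at 2.64, 2.49 and 2.53 FPKM in LX-2Vector and at 2.81, 2.63 and 3.03 FPKM in LX-2FAP, where only LX-2FAP replicate 2 fell within the LX-2Vector range. FGF17 (chromosome 8, 22042398 to 22048809) was at 0.323, 0.473 and 0.404 FPKM in LX-2Vector and at 0.226, 0.300 and 0.229 FPKM in LX-2FAP, from 27 to 28 and 16 to 18 counts a library. FGF18 (chromosome 5, 171419656 to 171457623) was at 0.304, 0.288 and 0.309 FPKM in LX-2Vector and at 0.186, 0.220 and 0.212 FPKM in LX-2FAP, from 10 to 16 and 8 to 9 counts. For both genes each LX-2FAP library was below each LX-2Vector library, which for FGF18 followed from the filter on low counts that it passed in LX-2Vector alone. In order of level per length, FGF1 stood between the leading pair and FGF17, and FGF18 was below FGF17 with no overlap in either line.

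FGF5 was the only one of the 10 genes that passed the test between the lines, at an adjusted p under 0.05 by edgeR's quasi-likelihood test over all genes. In CPM, counts scaled to library size with TMM factors, its mean went from 121 ± 7.55 in the control line to 149 ± 2.84 with FAPα (SD, n = 3). The log2 fold change was 0.29 (SE 0.05, 95% interval 0.19 to 0.39), an increase of 22.4%, with an edgeR adjusted p of 0.00719. Of the 18275 genes tested, 5.29% were called in either direction, 2.57% higher and 2.73% lower in LX-2FAP, against 1 of the 9 FGF and FGFR genes tested. With scaling by library size alone, 1.31% of all genes were called higher and 4.43% lower, and FGF5 was called. The call was lost without LX-2FAP replicate 3 (log2 fold change 0.28, edgeR adjusted p = 0.0713), where 0.138% of genes were called, and with limma on log2(FPKM + 1) (0.25, limma adjusted p = 0.112), where 0.0109% were. In bulk RNA, a change in the number of cells of a kind and a change in RNA per cell cannot be told apart.

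FGF2 and FGF1 did not pass. FGF2 was at 124, 134 and 140 CPM in LX-2Vector and at 148, 137 and 150 CPM in LX-2FAP. Its change was 0.13 on the log2 scale (SE 0.05, 95% interval 0.02 to 0.24, edgeR adjusted p = 0.155), which allows a difference of 1.27% to 17.9%. Without LX-2Vector replicate 1 it was 0.08. FGF1 was at 13.1, 12.3 and 12.5 CPM in LX-2Vector and at 14.1, 13.3 and 15.3 CPM in LX-2FAP, and its groups did not overlap on this scale. Its log2 fold change was 0.17 (SE 0.08, 95% interval -0.0013 to 0.35, edgeR adjusted p = 0.230). The intervals of these ligands are not adjusted for the number of genes.

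FGF17 and FGF18 had values below 0 that did not pass either. FGF17 was at 1.06, 1.54 and 1.32 CPM in LX-2Vector and at 0.751, 1.00 and 0.764 CPM in LX-2FAP. Its change on the log2 scale was -0.62 (SE 0.25, 95% interval -1.15 to -0.10, edgeR adjusted p = 0.147). FGF18 was at 0.606, 0.570 and 0.611 CPM in LX-2Vector and at 0.375, 0.445 and 0.430 CPM in LX-2FAP. Its change on the log2 scale was -0.52 (SE 0.31, edgeR adjusted p = 0.391). FGF18 passed the filter on low counts through its 3 LX-2Vector libraries alone, so its difference had to be in this direction. Counts this low give wide intervals, and that of FGF18 ran from -1.19 to 0.14.

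**Figure D2:**
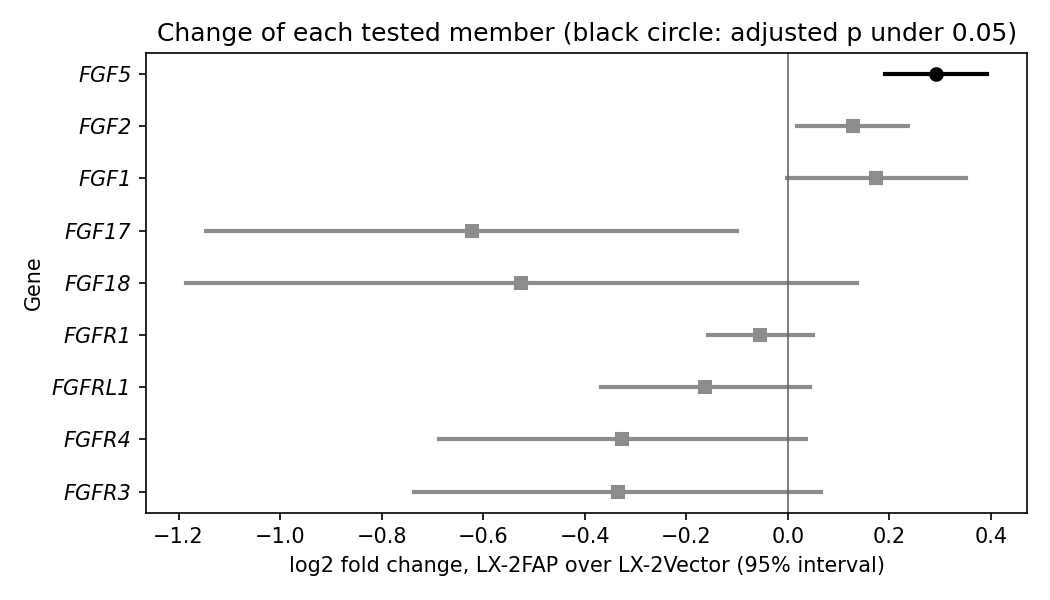
log2 fold change of LX-2FAP over LX-2Vector for the 9 genes tested, with the unadjusted 95% interval of edgeR's quasi-likelihood fit (3 libraries a group). The black circle is FGF5, the gene that passed at an adjusted p under 0.05, and the grey squares are genes that did not.

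On the CPM scale, FGF1 and FGF5 were higher and FGF17 and FGFR4 lower in LX-2FAP with no overlap between the lines. These were 4 of the 8 genes that passed the filter in libraries of both lines, which leaves out FGF18, and among all genes tested 26.4% did not overlap, 13% higher and 13.4% lower. An unadjusted p under 0.05 was found for 3 of the 9, FGF2, FGF5 and FGF17, and for 22.2% of all genes. The median log2 fold change was 0.13 over the 5 ligands and -0.01 over all genes. The ligand median includes FGF18, whose direction followed from the filter.

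The balance of the leading ligands was compared within each library, where scaling between libraries has no part. FGF5 over FGF2 in FPKM was 1.06, 1.01 and 1.05 in LX-2Vector replicates 1 to 3 and 1.12, 1.24 and 1.15 in LX-2FAP. All LX-2FAP ratios were above all LX-2Vector ratios, with means of 1.04 ± 0.0269 and 1.17 ± 0.0650 (SD, n = 3). The difference was 0.17 on the log2 scale, a 1.12-fold higher ratio, with an exact permutation p of 0.1 (2-sided), the smallest p that 3 libraries against 3 can give.

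**Figure D3:**
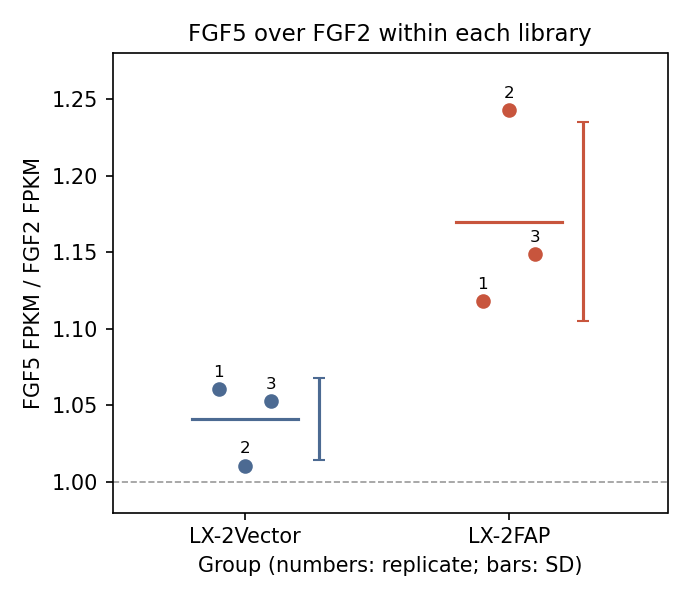
FGF5 FPKM divided by FGF2 FPKM in each library, with lines at the group means and bars of 1 SD (n = 3, replicate numbers beside the points). The LX-2FAP ratios, 1.12 to 1.24, lie above the LX-2Vector ratios, 1.01 to 1.06.

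The levels of FGF2 and FGF5 also depend on the gene length used. Both genes share exon bases with neighbours, and whether this affected their counts was not tested. NUDT6, a nudix hydrolase gene on the opposite strand, shares 804 exon bases with FGF2, 11.9% of the FGF2 exon bases, and whether the counting used strand is not given in the sources used here. NUDT6 had 824 counts over the 6 libraries against 17746 for FGF2, and its mean CPM was 6.59 ± 0.847 in the control line and 6.24 ± 0.447 with FAPα (SD, n = 3), a change of -0.07 (SE 0.12) on the log2 scale. FGF5 shares 136 exon bases, 2.3% of its own, with CFAP299 on the same strand, a gene with 173 counts. The counts of FGF5 were 2090 to 3489 a library.

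FGFR1 was the main FGF receptor transcript in both lines. FGFR1 (ENSG00000077782, chromosome 8, 38400215 to 38468834) was at 10.5, 9.46 and 9.51 FPKM in LX-2Vector and at 9.15, 9.63 and 9.06 FPKM in LX-2FAP. LX-2Vector replicate 1 was the highest library, and the other 5 overlapped. Of the summed FPKM of the kinase receptors FGFR1 to FGFR4, FGFR1 made up 91.0% in LX-2Vector and 92.5% in LX-2FAP. On the CPM scale FGFR1 was at 179, 161 and 162 in LX-2Vector and at 159, 168 and 158 in LX-2FAP. Its log2 fold change was -0.05 (SE 0.05, 95% interval -0.16 to 0.05, edgeR adjusted p = 0.564), an interval from 10.3% lower to 3.44% higher. Without LX-2Vector replicate 1 the value was 0.0012 (SE 0.04), on the other side of 0. FGFR1 shares 138 exon bases, 1.0% of its own, with LETM2, a gene with 1542 counts, and 156 bases, 1.1%, with AC087623.1, which had 11 counts, both on the opposite strand.

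FGFRL1, the receptor without a kinase domain, came next. FGFRL1 (chromosome 4, 1009936 to 1026897) was at 3.90, 2.93 and 3.43 FPKM in LX-2Vector and at 3.04, 3.02 and 3.03 FPKM in LX-2FAP. The LX-2FAP libraries lay within the LX-2Vector range. Its log2 fold change was -0.16 (SE 0.10, 95% interval -0.37 to 0.04, edgeR adjusted p = 0.352), with -0.04 when LX-2Vector replicate 1 was left out and -0.25 for replicate 2. FGFR1 over FGFRL1 within a library was 2.68, 3.23 and 2.77 in LX-2Vector and 3.01, 3.19 and 2.99 in LX-2FAP, with overlap. FGFRL1 made up 24.0% of the summed FPKM of the 5 receptors in LX-2Vector and 23.2% in LX-2FAP.

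The other kinase receptors were far lower. FGFR4 had 34 to 74 counts a library and FGFR3 29 to 58, and only FGFR2 was close to the lower limit of the data. FGFR4 (chromosome 5, 177086886 to 177098144), the receptor of hepatocytes for the bile acid signal FGF19, was at 0.584, 0.503 and 0.464 FPKM in LX-2Vector and at 0.430, 0.388 and 0.402 FPKM in LX-2FAP, lower in every LX-2FAP library. FGFR3 (chromosome 4, 1793293 to 1808872), best known as a brake on bone growth, was at 0.454, 0.475 and 0.421 FPKM in LX-2Vector and at 0.418, 0.339 and 0.282 FPKM in LX-2FAP. The log2 fold changes were -0.33 for FGFR4 (SE 0.17, edgeR adjusted p = 0.279) and -0.33 for FGFR3 (SE 0.19, edgeR adjusted p = 0.320), so neither passed. FGFR4 was at -0.21 without LX-2Vector replicate 1, and FGFR3 at -0.51 and -0.20 when LX-2FAP replicates 1 and 3 were left out. In both lines the levels of FGFR3 and FGFR4 overlapped, and FGFR3 also overlapped with FGF17. FGFR2 (chromosome 10, 121478334 to 121598458), a receptor of epithelial cells in its best known isoform, had 1 count in LX-2Vector replicate 2 and none in the other 5 libraries. A count of 0 allows up to 3 counts, 0.114 to 0.165 CPM over these 5 libraries, and FGFR2 was not tested. The 4 receptors tested had a median log2 fold change of -0.24, and none passed.

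**Figure D4:**
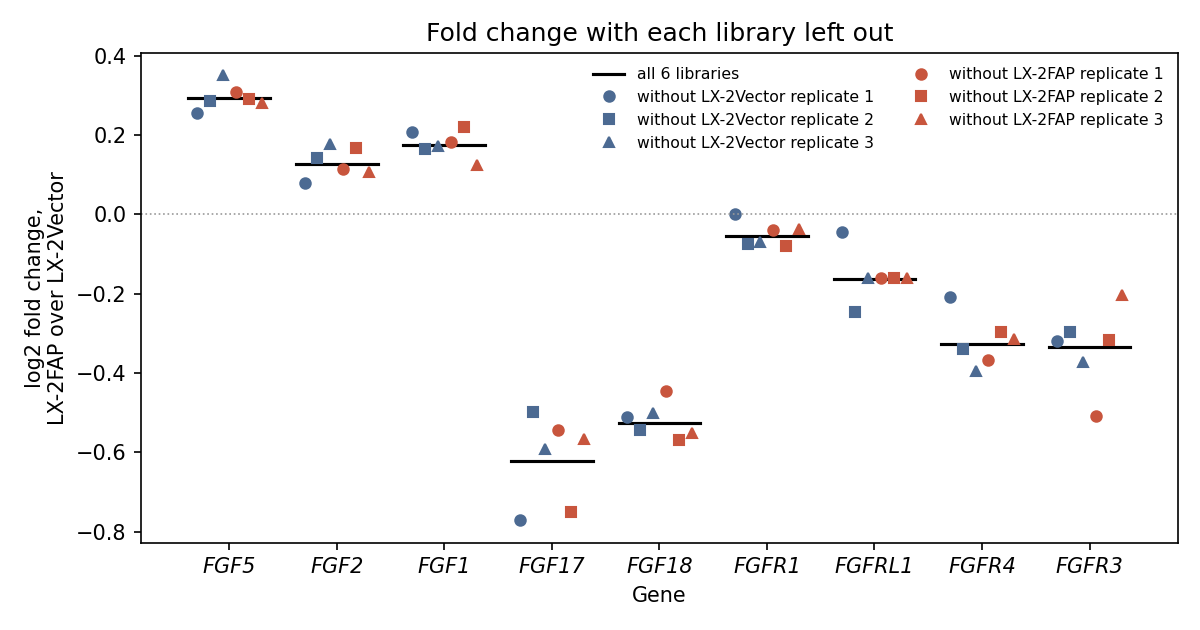
log2 fold change of LX-2FAP over LX-2Vector for the 9 genes tested, with all 6 libraries (black lines) and with each library left out in turn (blue, an LX-2Vector library left out; red, an LX-2FAP library left out). FGF5 stays between 0.26 and 0.35, and FGFR1 touches 0 without LX-2Vector replicate 1.

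The other FGF genes had few counts or none. Of the 17 other FGF ligand genes, 2 had no count in the 6 libraries, 9 had 1 to 10 counts and 6 had more, and the 17 together had 464 counts. FGF14, an intracellular FGF homolog that does not signal through FGFRs, had 282 of these and was the only one tested (log2 fold change -0.14, edgeR adjusted p = 0.704). FGFBP1, a carrier that frees FGFs from heparan sulfate, had 19 counts in LX-2Vector and 28 in LX-2FAP, and the coreceptor gene KL had 0 and 2, so neither was tested. The coreceptor gene KLB, at 59 counts in each line, did not pass (0.06, edgeR adjusted p = 0.934).

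The wider pathway was read as 86 genes in 6 roles, listed with earlier results of these data known. Of these 86 genes, 63 were tested and 11 passed, 7 higher and 4 lower in LX-2FAP, against 5.29% of all genes. With scaling by library size alone 5 were higher and 5 lower (1.31% and 4.43% of all genes). Without LX-2FAP replicate 1 there were 6 higher and 7 lower (4.75% and 5.62% of all genes). The number fell to 6 when LX-2Vector replicate 1 was left out (2.09% of all genes called) and to 5 for LX-2FAP replicate 2 (0.687%). It fell to 2 for LX-2FAP replicate 3 (0.138%) and to 0 with each limma fit on the FPKM values (0.0109%). The median log2 fold change of the 63 was 0.02, and that of all genes -0.01.

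Among the listed proteoglycans that present FGFs to their receptors, 3 of 9 tested passed, all 3 lower in LX-2FAP. Over all genes 5.29% passed, 2.73% of them all lower in LX-2FAP. The fitted change was below 0 for 6 of the 9 and above 0 for 3, with a median of -0.08. Over all genes tested it was below 0 for 9685 and above 0 for 8590. HSPG2, which encodes the basement membrane proteoglycan perlecan, was at 3.93, 3.40 and 3.77 FPKM in LX-2Vector and at 2.91, 2.46 and 2.53 FPKM in LX-2FAP. It fell by 0.46 on the log2 scale (SE 0.07, edgeR adjusted p = 0.00386) and passed in 12 of 14 alternative fits. The lines did not overlap for HSPG2, and in CPM 13.4% of all genes were lower in LX-2FAP with no overlap. The syndecan gene SDC3 (-0.23, edgeR adjusted p = 0.0438) and the glypican gene GPC1 (-0.20, edgeR adjusted p = 0.0445) also passed, in 7 and 8 of 14 alternative fits respectively. The syndecan gene SDC4 had a higher level, 71.4 ± 2.40 FPKM in LX-2Vector and 68.6 ± 1.76 in LX-2FAP (SD, n = 3), and did not pass (edgeR adjusted p = 0.738). Of the 12 genes of enzymes that build, sulfate or trim heparan sulfate, 10 were tested and none passed by edgeR. An unadjusted edgeR p under 0.05 was found for 2 of the 10, against 22.2% of all genes, and their median was -0.05.

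Of the 20 genes of signal transduction from the receptor to ERK, all tested, 1 passed, against 5.29% of all genes. PTPN11, which encodes the phosphatase SHP2 that acts downstream of FRS2, was at 77.3, 82.2 and 79.2 FPKM in LX-2Vector and at 84.2, 91.7 and 89.0 FPKM in LX-2FAP. It rose by 0.18 on the log2 scale (SE 0.04, edgeR adjusted p = 0.0233) and passed in 8 of 14 alternative fits. The adaptor genes FRS2 (0.09, edgeR adjusted p = 0.493) and GRB2 (0.04, edgeR adjusted p = 0.652) did not pass. The median of this role was 0.03.

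The list of genes that the pathway switches on or that restrain it was written with earlier results of these data known. Its counts describe the listed genes only. All 21 listed genes were tested, and 7 passed. Of these, 6 were higher and 1 lower in LX-2FAP, where 2.57% of all genes were called higher and 2.73% lower. The fitted change was above 0 for 16 of the 21 and below 0 for 5, with a median of 0.08. Over all genes tested it was above 0 for 8590 and below 0 for 9685. CCND1, the gene of cyclin D1, was at 156, 156 and 157 FPKM in LX-2Vector and at 189, 204 and 205 FPKM in LX-2FAP, up by 0.38 on the log2 scale (SE 0.04, edgeR adjusted p = 0.000401). DUSP6, an ERK phosphatase gene, was at 19.9, 20.1 and 19.9 FPKM and at 22.4, 22.8 and 22.1 FPKM, up by 0.20 on the log2 scale (SE 0.04, edgeR adjusted p = 0.0197). In both genes the lines did not overlap, and 26.4% of all genes did not overlap in CPM. The inhibitor genes SPRED1 (0.29, edgeR adjusted p = 0.0155) and SPRY2 (0.21, edgeR adjusted p = 0.0339), the ETS factor gene ETV1 (0.26, edgeR adjusted p = 0.0367) and PHLDA1 (0.24, edgeR adjusted p = 0.00765) were the others that rose. SPRY2 and ETV1 each passed in 7 of 14 alternative fits, and neither did with scaling by library size alone. Of the same 14 fits SPRED1 passed in 9, DUSP6 in 10, PHLDA1 in 11 and CCND1 in 12. EGR1, an immediate early transcription factor gene that serum and ERK induce, went the other way. It was at 10.3, 9.29 and 9.79 FPKM in LX-2Vector and at 6.68, 7.69 and 7.03 FPKM in LX-2FAP. EGR1 fell by 0.44 on the log2 scale (SE 0.07, edgeR adjusted p = 0.00675) and passed in 11 of the 14 fits. SPRY4 (0.08, edgeR adjusted p = 0.446), ETV4 (0.03, edgeR adjusted p = 0.847) and ETV5 (0.09, edgeR adjusted p = 0.275), which are close relatives of genes that passed, did not. These genes answer to many receptors besides FGFRs.

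**Figure D5:**
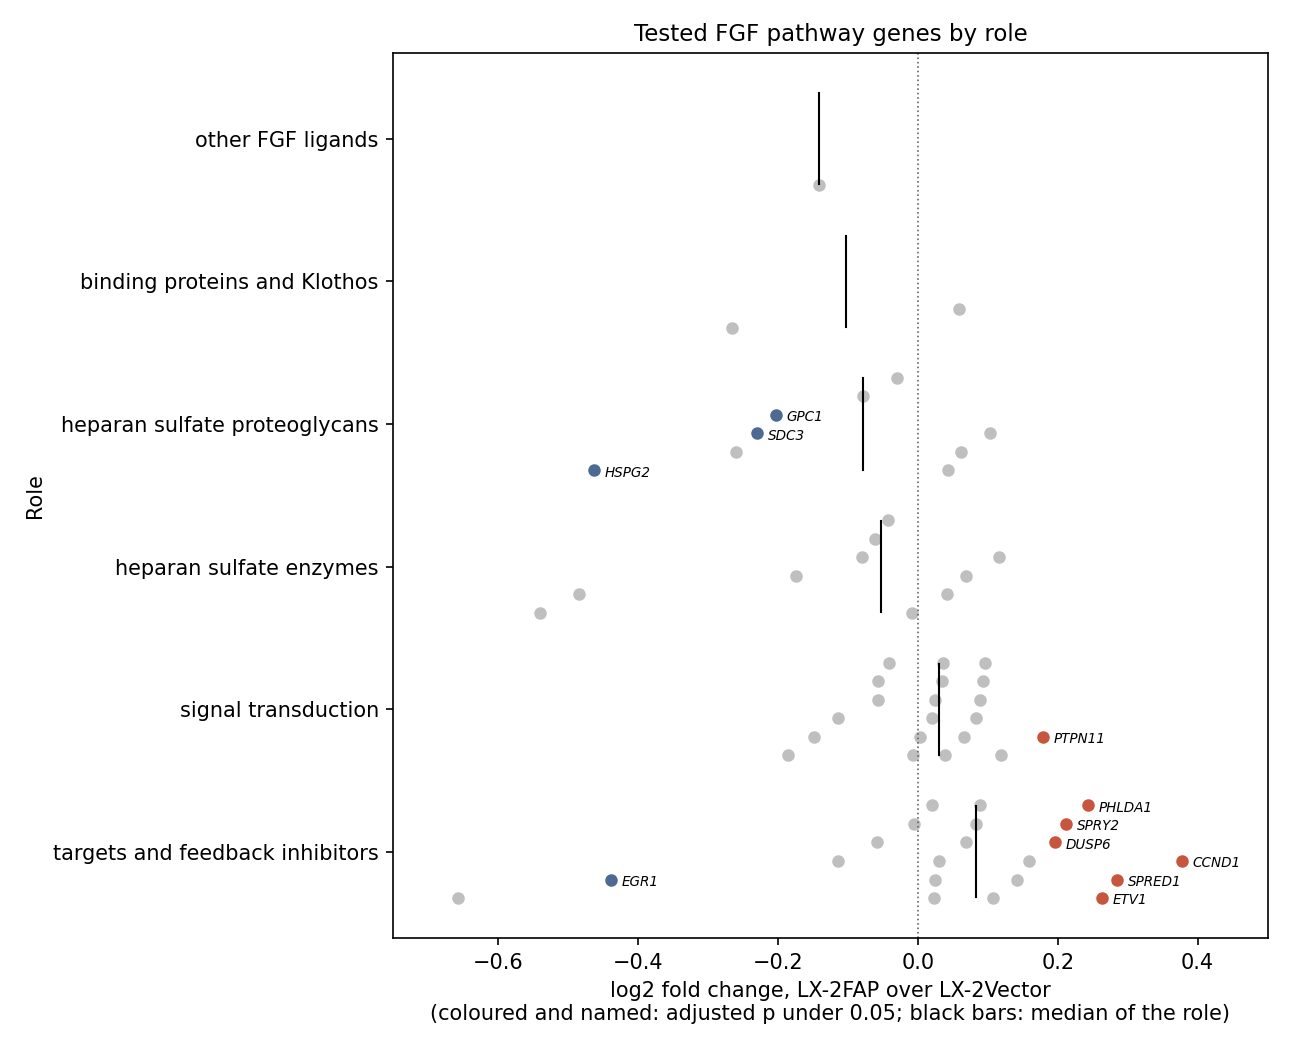
log2 fold change of LX-2FAP over LX-2Vector for the 63 tested pathway genes, in rows by role, with black bars at the median of each role. Coloured and named points passed at an adjusted p under 0.05, 7 higher (red) and 4 lower (blue).

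The genes whose pattern over the 6 libraries was most like that of FGF5 were LINC02454, ITGA6 and ESF1. Their log2 CPM, centred on each gene's mean, differed from that of FGF5 by a root mean square of 0.0292, 0.0355 and 0.0358, against a median of 0.168 over 11555 genes averaging 100 counts or more. For FGFR1 they were STRN4, SHC1 and REEP1, at 0.00952, 0.0113 and 0.0113 against a median of 0.103. The measure covers 6 libraries in 2 groups and describes these libraries only.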

How the data were processed

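RNA was sequenced from 3 LX-2Vector and 3 LX-2FAP libraries, and groups were taken from the sample titles. Per the labels, ribosomal RNA was depleted, while the study's methods also name poly(A) selection. The deposited counts per gene were made by the authors, and the submitters' processing notes name HISAT2 2.0.5 and featureCounts 1.5.0-p3. The deposited FPKM values were computed by the authors from these counts and a gene length. The notes name hg18, but 58337 of 60605 Ensembl identifiers are in GENCODE release 29 (GRCh38), and coordinates and exon overlaps here come from that release. Of the gene lengths that the deposited FPKM imply, 60.7% equal the merged exon length of that release. For FGFR1 the lengths are 17201 and 13842 bases, and for FGFR2 18813 and 7578. The annotation used for counting therefore differed for some genes, and the shared exon bases given here may not be those counted. The notes also name DESeq2 1.16.1, whose results were not used. Gene counts do not separate isoforms.

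Counts were filtered (filterByExpr defaults, a minimum count of 10 and total of 15), scaled by TMM and tested with edgeR 4.0.16 (R 4.3.3) by the quasi-likelihood F-test, 2-sided, with Benjamini-Hochberg adjustment over 18275 genes and calls at an adjusted p under 0.05. Levels were compared between genes in FPKM, with other lengths and CPM as alternatives. Alternatives were DESeq2 1.42.0, its size factors, library size alone, other filters, limma 3.58.1 on log2(FPKM + 1) and log2(FPKM + 0.1), a replicate block and each library left out. Replicate pairs within a line differed by more than sampling noise (chi-square per degree of freedom 2.05 to 4.88). Named were the 10 genes, FAP, genes sharing exon bases with them, pathway genes that passed or were counted, and the 3 nearest patterns to FGF5 and FGFR1. Those nearest to FGF2 are not reported here. Genes, lists and tests were chosen with earlier results of these data known.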

Additional observations from a re-analysis of the deposited data

How the results depend on the processing

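Of 171 values recomputed under alternatives, 155 kept their direction and their side of the threshold, or stayed within the spread or 1.5 times of the reported count. FGF5 did not pass without LX-2FAP replicate 3 (log2 fold change 0.28, edgeR adjusted p = 0.0713). It also did not pass with limma on log2(FPKM + 1) (0.25, limma adjusted p = 0.112) and log2(FPKM + 0.1) (0.26, limma adjusted p = 0.113). In these fits 0 of the 9 genes passed, against 0.138%, 0.0109% and 0.0109% of all genes. Over all alternatives FGF5 lay between 0.25 and 0.35, with adjusted p from 2.68e-07 to 0.113. DESeq2 gave no adjusted p for FGF17, FGF18, FGFR3 and FGFR4, which are not counted there. It called 1 of the other 5 genes, against 10.8% of all genes to which it gave an adjusted p. With each library left out, 0 to 1 of the 9 genes and 2 to 13 pathway genes passed, while the share of all genes called ran from 0.138% to 10.4%, and 0 pathway genes passed with each limma fit. With each library left out FGFR1 lay between -0.081 and 0.0012, the latter without LX-2Vector replicate 1, where its sign changed. FGF2 over FGF5 in LX-2Vector was 0.961 in FPKM, 1.09 in CPM, which is not per length, and 0.844 with the length of the longest coding transcript, an alternative chosen after seeing the data. FGFR1 over FGFRL1 was 2.87 in FPKM, 11.4 in CPM and 6.83 with that length. The deposited FPKM imply a length of 17201 bases for FGFR1, whose longest coding transcript has 6054. Same-numbered libraries of the lines correlated at -0.0389, 0.0436 and -0.00962 in their deviations, and other pairs at -0.11 to 0.122. These values cannot show whether same-numbered libraries were handled together. With the replicate block, FGF5 alone of the 9 genes passed (0.29, edgeR adjusted p = 0.00502), and 11 pathway genes, against 5.34% of all genes. Counts under 30 a library limit what can be said of FGF17 and FGF18.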
